A study of Mus musculus with 16 samples.

Results

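In all, 10 genes of the Notch pathway were examined in the brains of aged mice given adropin or saline: the receptors Notch1, Notch2 and Notch3, the ligands Dll1, Jag1 and Jag2, the nuclear effector Rbpj and the target genes Hes1, Hes5 and Hey1. They were taken by gene symbol from a count table of 40481 genes, and all 10 were among the 14949 genes tested. RNA was sequenced from 16 brains, 8 per group, of male C57BL/6J mice (C57BL in the labels) obtained at 18 months of age. The adropin group received the secreted peptide adropin(34-76) at 90 nmol/kg/d as a daily intraperitoneal injection, and the saline group received its saline diluent with albumin. All mice had 2 weeks of injections before behavioural tests, injections went on during the tests, and a 6 h fast came before collection. No genetic change was involved, and the sources used here name no brain region. The comparison asks whether adropin treatment went with a different level of Notch pathway transcripts.

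Notch receptors are membrane proteins that bind Delta and Jagged ligands on a neighbouring cell. Binding lets proteases release the intracellular part of the receptor, which moves to the nucleus and joins the DNA-binding protein Rbpj, so that repressor genes of the Hes and Hey families are transcribed. In brain the pathway is known for keeping neural stem cells undifferentiated, for astrocyte formation and for the smooth muscle and pericytes of blood vessels. The contactin Cntn6, a neuronal surface protein, has been described as a non-canonical Notch ligand and as a partner of adropin.

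Promoter sequence is shown because Rbpj binds near the start of Hes genes. RefSeq windows (GRCm38.p6) were found for 8 of the 10 genes, and the 250 bases before the RefSeq start were searched on both strands for GTGGGAA, the word usually given as the Rbpj site. Hes1 and Hey1 had no window. The gene positions given further below come from GENCODE, whose genes can begin elsewhere, so that the windows of Notch1, Jag2 and Rbpj and 1 of those of Dll1 lie inside the gene as placed there, and those of Jag1 and Notch2 run into it. Capitals mark the matches.
Hes5: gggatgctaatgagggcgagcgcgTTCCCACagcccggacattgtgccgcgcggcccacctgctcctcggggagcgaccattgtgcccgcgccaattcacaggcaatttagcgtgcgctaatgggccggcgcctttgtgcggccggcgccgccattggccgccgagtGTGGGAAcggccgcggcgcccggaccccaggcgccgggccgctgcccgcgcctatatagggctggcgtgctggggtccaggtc
Notch1: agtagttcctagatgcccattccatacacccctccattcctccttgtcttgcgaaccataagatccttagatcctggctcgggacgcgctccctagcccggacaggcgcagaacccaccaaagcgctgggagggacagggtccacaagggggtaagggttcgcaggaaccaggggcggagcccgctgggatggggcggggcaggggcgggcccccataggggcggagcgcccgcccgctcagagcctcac
The Hes5 window (chr4:154960673-154960922, plus strand) held 2 matches, at 219 and 76 bases before the start, one on each strand. At least 1 match was present in 5.42% of the 32851 windows of the same length, and 2 or more were present in 0.161%. The Notch1 window (chr2:26503823-26504072, minus strand) held no match, as was the case for each of the other 6 genes with a window. The shorter word TGGGAA, which every GTGGGAA match contains, was present in 21.6% of windows, and among the members it occurred in those of Hes5 and Rbpj. A match describes the letters of a window, and binding was not measured.

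Library totals ranged from 35185051 to 70314050 counts in the adropin group and from 35026503 to 47245785 in the saline group. Each member had between 115 counts (Dll1) and 3433 counts (Hey1) in every mouse. Neuronal markers (6 of 6 tested) were high in every brain, with summed levels of 7038 to 8374 CPM (counts per library total, adjusted by TMM factors) in adropin and 6880 to 7500 in saline. Saline mouse 8 stood apart, with summed choroid plexus markers at 2471 CPM and cerebellar markers at 494 CPM. Saline mouse 3 had 329.8 CPM of choroid plexus markers, and the other 14 mice had 11.5 to 74.4. The mitochondrial share of counts was 9.27% in saline mouse 3, 9.54% in saline mouse 8 and 7.42% in adropin mouse 6, against 4.02% to 6.05% elsewhere. In whole tissue, fewer cells of a type and less RNA per cell cannot be told apart.

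No member of the pathway differed between adropin and saline mice beyond the spread between mice. None of the 10 had an adjusted p below 0.05 (edgeR quasi-likelihood test, Benjamini-Hochberg adjustment over all genes), where 0% of all genes tested did. None passed the study's cut-off of a fold change above 1.5 with an unadjusted p below 0.05, which 0.421% of all genes passed (63 genes by edgeR). The study itself used limma and reported more genes at this cut-off than edgeR gave here, or limma-voom (46 genes). None had an unadjusted p below 0.05, where 3.99% of all genes did. The largest differences were a higher mean of Notch3 and Notch1 and a lower mean of Hes1 in adropin mice, each with an interval that includes 0. The 95% intervals of all 10 members lay within a fold change of 1.5 in either direction, as did those of 90.4% of all genes tested. The log2 fold change of adropin against saline was above 0 for 8 members and below 0 for Dll1 and Hes1. Its median was 0.05 over the members and -0.0019 over all genes tested, of which 49.2% were above 0. With saline mice 3 and 8 left out, a choice made after seeing the data, 4 members were above 0 and the median was -0.03.

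**Figure D1:**
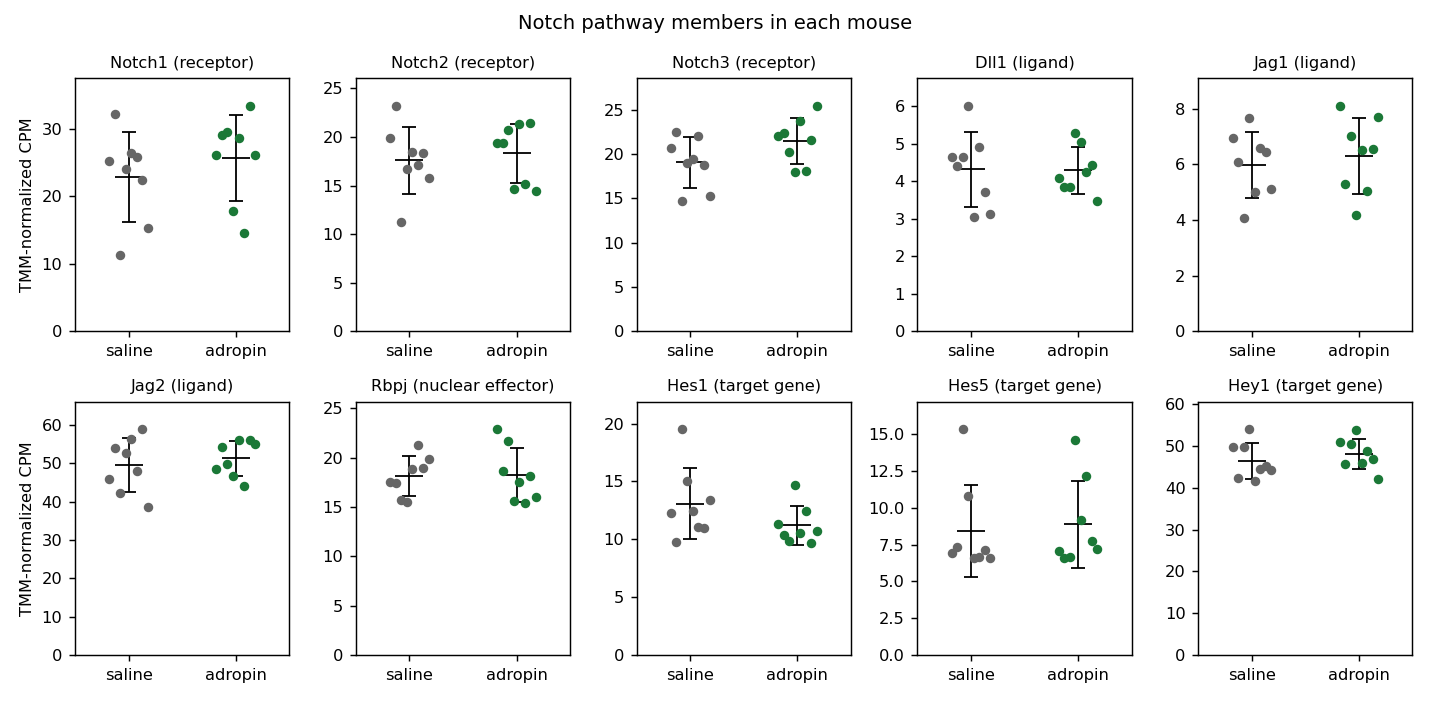
TMM-normalized CPM (y axis, from 0) of each of the 10 members in each mouse. Points are mice (8 saline in grey, 8 adropin in green), and bars give the mean and SD. The groups overlap for every member, and low Notch1 values (11.3 to 17.8 CPM) stand below the rest in 2 mice of each group.

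Notch1, the receptor best known from neural stem cells and astrocytes, lies on chromosome 2 of GRCm38 from 26457903 to 26516663 on the minus strand and has 14.232 kb of merged exons. In adropin mice its level had a lowest value of 14.5 CPM, a median of 27.4 and a highest of 33.4, and in saline mice 11.3, 24.6 and 32.2. The groups overlapped nearly throughout. Low values were shared by both, in adropin mice 4 (17.8 CPM) and 6 (14.5 CPM) and saline mice 3 (11.3 CPM) and 8 (15.3 CPM), and the other 12 mice had 22.4 CPM or more. The mean was 25.6 ± 6.34 CPM over the adropin mice and 22.8 ± 6.61 over the saline mice (SD, n = 8 each). On the log2 scale the difference was 0.17 (standard error 0.19, 95% interval -0.23 to 0.56, edgeR adjusted p = 0.878, exact permutation p = 0.435). With single mice left out it ranged from 0.07 (without saline mouse 3) to 0.26 (without saline mouse 2), and without saline mice 3 and 8 it was -0.02. On an exon Notch1 overlaps 0610009E02Rik and Gm13568 of the other strand, and whether counting used strand is not given in the sources used here.

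Notch2, a receptor of broad expression, lies on chromosome 3 from 98013527 to 98150361 on the plus strand. Adropin mice had a lowest value of 14.5 CPM, a median of 19.4 and a highest of 21.5, and saline mice had 11.2, 17.8 and 23.2. The saline group held both the lowest mouse (saline 3) and the highest (saline 2). Notch2 had a log2 fold change of 0.06 (standard error 0.12, 95% interval -0.20 to 0.32, edgeR adjusted p = 0.922, exact permutation p = 0.653). It turned to -0.05 without saline mice 3 and 8. Gm42820 overlaps its exons on the same strand.

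Notch3 is the receptor of mural cells, the smooth muscle cells and pericytes of vessels, and its gene lies on chromosome 17 from 32120820 to 32166852 on the minus strand. Adropin mice ranged from 18.0 to 25.5 CPM with a median of 21.8, and saline mice from 14.7 to 22.5 with a median of 19.2. The groups overlapped, although 6 of 8 adropin mice lay above the saline median and the 2 lowest mice were saline 3 and 8. Mean levels were 21.4 ± 2.60 CPM with adropin and 19.1 ± 2.87 without (SD, n = 8 each). This is 0.17 on the log2 scale (standard error 0.10, 95% interval -0.03 to 0.37, edgeR p = 0.0934, adjusted p = 0.874, exact permutation p = 0.110). The edgeR p of Notch3 was 0.0363 without saline mouse 2, 0.0433 without adropin mouse 4 and 0.0453 without adropin mouse 6, while without saline mice 3 and 8 the log2 fold change was 0.07. The 7 mural markers, each tested and none at 0, summed to 137 to 186 CPM in adropin and 138 to 220 in saline, and their part in the Notch3 values is described with the relations below. On an exon Notch3 overlaps Gm17276 of the other strand.

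Dll1, a Delta ligand, was with Jag1 one of the 2 least abundant members per length of exon and lies on chromosome 17 from 15367354 to 15376872 on the minus strand. Its level was 3.47 to 5.29 CPM in adropin mice (median 4.17) and 3.05 to 6.02 in saline mice (median 4.51). The adropin values lay inside the saline range. The log2 fold change of Dll1 was -0.01 (standard error 0.14, 95% interval -0.29 to 0.28, edgeR adjusted p = 0.991), and the difference in mean log2 CPM had the opposite sign at 0.01 (exact permutation p = 0.936). A930024N18Rik overlaps an exon on the other strand.

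Jag1, a Jagged ligand of vessels and astrocytes among other cells, lies on chromosome 2 from 137081456 to 137116644 on the minus strand. It ranged from 4.16 to 8.11 CPM in adropin mice (median 6.54) and from 4.05 to 7.66 in saline mice (median 6.26). The lowest mouse of each group, adropin 4 and saline 3, was among the 4 mice low in Notch1. Jag1 had a log2 fold change of 0.07 (standard error 0.15, 95% interval -0.23 to 0.38, edgeR adjusted p = 0.913, exact permutation p = 0.659), and -0.03 without saline mice 3 and 8.

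Jag2, the other Jagged ligand, was the most abundant of the 3 ligands per length of exon and lies on chromosome 12 from 112907819 to 112929776 on the minus strand. It ranged from 44.1 to 56.0 CPM in adropin mice (median 51.9) and from 38.6 to 58.9 in saline mice (median 50.2). The adropin range lay within the saline range, and saline mouse 8 was lowest. Jag2 had a log2 fold change of 0.05 (standard error 0.08, 95% interval -0.13 to 0.22, edgeR adjusted p = 0.904, exact permutation p = 0.524). It was -0.04 without saline mice 3 and 8, and 0.0047 (without saline mouse 8) to 0.09 (without saline mouse 7) with single mice left out.

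Rbpj, the DNA-binding protein on which the intracellular part of every Notch receptor acts, lies on chromosome 5 from 53466152 to 53657362 on the plus strand. Adropin mice ranged from 15.4 to 22.9 CPM (median 17.8) and saline mice from 15.5 to 21.3 (median 18.2). The group means were nearly equal, at 18.2 ± 2.77 and 18.1 ± 2.00 CPM (SD, n = 8 each). The log2 fold change of Rbpj was 0.01 (standard error 0.09, 95% interval -0.18 to 0.20, edgeR adjusted p = 0.988, exact permutation p = 0.985), and -0.01 when libraries were scaled by their totals alone.

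Hes1, a transcriptional repressor that is the classic target of Notch signalling, lies on chromosome 16 from 30064384 to 30067796 on the plus strand. Its lowest, median and highest levels were 9.68, 10.6 and 14.7 CPM in adropin mice and 9.77, 12.3 and 19.5 in saline mice. Saline mouse 3 was highest, followed by saline mouse 4 (15.0 CPM) and adropin mouse 4 (14.7 CPM), so the upper end of Hes1 was held by both groups. Only 2 of 8 adropin mice lay above the saline median. Mean levels were 11.2 ± 1.66 CPM with adropin and 13.1 ± 3.07 without (SD, n = 8 each). This is -0.22 on the log2 scale (standard error 0.13, 95% interval -0.48 to 0.04, edgeR p = 0.0941, adjusted p = 0.874, exact permutation p = 0.142). The edgeR p of Hes1 was 0.0344 without adropin mouse 4 and 0.0465 without saline mouse 2, and the log2 fold change was -0.12 without saline mouse 3 and -0.09 without saline mice 3 and 8.

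Hes5, the Hes gene most closely tied to neural progenitors and astrocytes, lies on chromosome 4 from 154960923 to 154962371 on the plus strand, directly after the promoter window printed above. It had 6.62, 7.46 and 14.6 CPM as its lowest, median and highest values in adropin mice and 6.58, 7.05 and 15.3 in saline mice. Each group held 2 high mice, adropin 4 (14.6 CPM) and 6 (12.1 CPM) and saline 3 (15.3 CPM) and 4 (10.8 CPM), and the other 12 lay between 6.58 and 9.15 CPM. Hes5 had a log2 fold change of 0.08 (standard error 0.21, 95% interval -0.36 to 0.51, edgeR adjusted p = 0.939, exact permutation p = 0.687). It was 0.23 without saline mice 3 and 8, 0.23 with the length contrast described below as a covariate and -0.19 when blocked by the first number of the labels, and none of these had an unadjusted p below 0.05 (0.238, 0.179 and 0.453 by edgeR). That block compares the groups only within first numbers held by both, in adropin mice 2, 3, 7 and 8 and saline mice 1, 2, 3 and 6. Gm20421 overlaps an exon of Hes5 on the other strand.

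Hey1, a repressor of the related Hey family, lies on chromosome 3 from 8663359 to 8667256 on the minus strand and had the smallest spread of the target genes relative to its mean. It ranged from 42.2 to 53.9 CPM in adropin mice (median 47.9) and from 41.8 to 54.0 in saline mice (median 44.9), ranges that nearly coincide, although 7 of 8 adropin mice lay above the saline median. Hey1 had a log2 fold change of 0.05 (standard error 0.06, 95% interval -0.08 to 0.18, edgeR adjusted p = 0.883, exact permutation p = 0.401), and 0.03 (without saline mouse 5) to 0.08 (without saline mouse 4) with single mice left out.

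Levels between genes were compared as TMM-normalized CPM per kilobase of merged exons (RPKM), as the mean over all 16 mice with its SD. Hey1 was highest at 14.5 ± 1.20 RPKM and was followed by Jag2 (7.23 ± 0.838), Hes5 (6.35 ± 2.16) and Hes1 (5.95 ± 1.26). The receptors came next, Notch3 at 2.50 ± 0.361 RPKM, Notch1 at 1.70 ± 0.451 and Notch2 at 1.67 ± 0.294. Rbpj (1.43 ± 0.183 RPKM), Jag1 (1.05 ± 0.213) and Dll1 (1.02 ± 0.189) were lowest. Thus transcripts of the short target genes and of Jag2 exceeded those of the receptors in level per length in this tissue. Neighbours in this order were apart in every mouse for Hey1 over Jag2, Hes1 over Notch3 and Notch3 over Notch1. Jag2 exceeded Hes5 in 12 mice, Notch2 exceeded Rbpj in 13 and Rbpj exceeded Jag1 in 14. By merged exons, the neighbours Hes5 and Hes1, Notch1 and Notch2, and Jag1 and Dll1 did not differ beyond their spread, the first exceeding the second in 9, 10 and 9 of 16 mice. The order depends on the length used. With the longest annotated transcript in place of merged exons, Rbpj (3.31 RPKM) came before Notch1 (2.55) and Notch3 (2.53), and Dll1 (1.20) before Jag1 (1.09). Hes1 (8.26 RPKM) then exceeded Hes5 (6.80) in 14 of 16 mice.

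**Figure D2:**
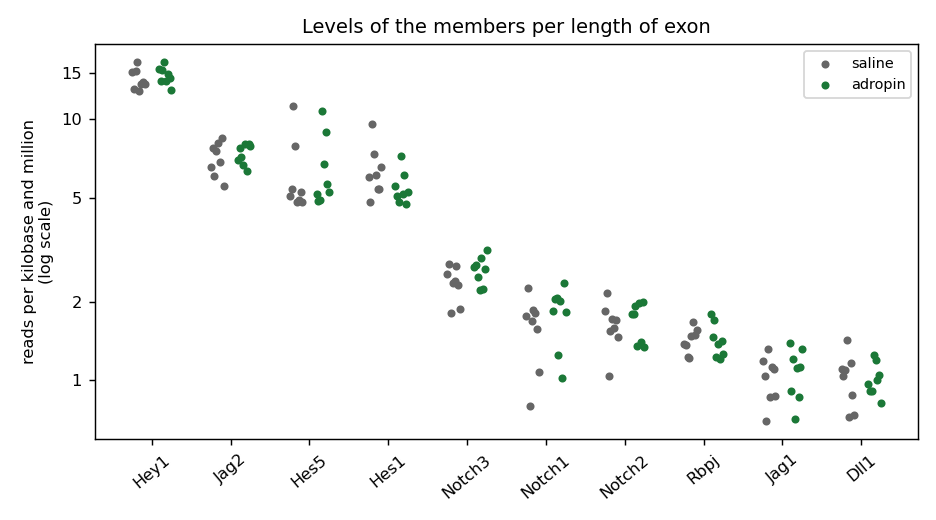
TMM-normalized CPM per kilobase of merged exon (RPKM, y axis, log scale) of each member in each of the 8 saline mice (grey) and 8 adropin mice (green), ordered by the mean over 16 mice. Hey1 (mean 14.5 RPKM) lies above all others in every mouse and Dll1 and Jag1 (1.02 and 1.05 RPKM) are lowest.

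A further 74 genes of the pathway were listed by role, and 71 of them were tested, 37 with a log2 fold change above 0 and 34 below. None had an adjusted p below 0.05 or passed the fold change cut-off. An unadjusted p below 0.05 was reached by 3 (edgeR), 2 higher and 1 lower in adropin. Over all 71 genes the median log2 fold change was 0.02. The share, 3 of 71, was near that of all genes. The 3 genes were the presenilin Psen2, a catalytic subunit of the γ-secretase that cuts the receptor, the coactivator Crebbp and the corepressor Ncor1. Psen2 ranged from 17.1 to 19.4 CPM in adropin mice (median 18.0) and from 18.6 to 22.4 in saline mice (median 19.4). All 8 adropin mice lay below the saline median, although the ranges overlap. The difference in Psen2 was -0.13 on the log2 scale (standard error 0.05, edgeR p = 0.0209, adjusted p = 0.874, exact permutation p = 0.0048). Crebbp was at 106 to 137 CPM in adropin (median 115) and 92.3 to 114 in saline (median 107), a log2 fold change of 0.14 (standard error 0.06, edgeR p = 0.0297, adjusted p = 0.874, exact permutation p = 0.0222). Ncor1 was at 236 to 302 CPM in adropin (median 274) and 226 to 275 in saline (median 247), a log2 fold change of 0.13 (standard error 0.06, edgeR p = 0.0438, adjusted p = 0.874, exact permutation p = 0.0448). For both, the adropin range lay higher and overlapped the saline range. Psen2 and Crebbp lost an unadjusted p below 0.05 when some single mice were left out (highest p 0.0527 and 0.0578), as did Ncor1 (0.0871). When blocked by the first number of the labels Ncor1 was at 0.02 on the log2 scale, while Psen2 was at -0.19 and Crebbp at 0.18, each farther from 0 than without the block. None of the 3 then had an unadjusted p below 0.05 (0.827 for Ncor1, 0.0545 for Psen2 and 0.0662 for Crebbp by edgeR), in a fit that compares fewer mice, as given for Hes5. When blocked by the second number, Psen2 alone of the 3 had one (0.0424, against 0.109 for Crebbp and 0.177 for Ncor1). Crebbp and Ncor1 were also above 0.05 without saline mice 3 and 8 (0.0542 and 0.0596) and with the length contrast as a covariate (0.0535 and 0.0630), and Ncor1 with library size only (0.0689).

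By role, the other receptors and canonical ligands Notch4, Dll3 and Dll4 were all above 0 on the log2 fold change scale, from 0.05 (Dll3) to 0.10 (Dll4). Of the 7 non-canonical ligands tested, 3 were above 0, from Dlk1 at -0.31 to the contactin Cntn1 at 0.11. Dlk1 varied widely between mice, from 4.15 to 23.8 CPM in adropin and 2.87 to 24.8 in saline. Its log2 fold change was -0.04 without saline mouse 6 and -0.68 without adropin mouse 6. When blocked by the first number of the labels, a fit that compares fewer mice, it was -1.36 with an edgeR p of 0.0601. Of 5 glycosyltransferases that modify the receptor, 2 were above 0, between the fringe genes Lfng (-0.11) and Mfng (0.06). Of 10 proteases, 5 were above 0, between Adam17 (-0.14) and Adam10 (0.12), both of them sheddases. Adam17 was at -0.22 with the length contrast described below as a covariate and at -0.21 without saline mice 3 and 8, with unadjusted p below 0.05 in both (0.0051 and 0.0338 by edgeR), and at 0.079 when blocked by the first number of the labels. The ligand endocytosis genes held 5 of 6 above 0, from Epn1 (-0.0053) to the ubiquitin ligase Mib1 (0.19). Among 10 genes of receptor turnover 6 were above 0, from the ubiquitin ligase Dtx2 (-0.10) to the kinase Aak1 (0.20). The 8 coactivators had 6 above 0, from the acetyltransferase Kat2b (-0.09) to Maml3 (0.30), a partner of the Notch and Rbpj complex. The 15 corepressors had 7 above 0, from Sap30 (-0.17) to Spen (0.15). In the main comparison none of the genes named by role here other than the 3 above had an unadjusted p below 0.05.

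The 7 genes tested from the list of further target genes (Hes6, Hes7, Hey2, Heyl, Nrarp, Id1 and Id3) all had a log2 fold change below 0. Their median was -0.13, with a range of -0.27 (Hes7) to -0.06 (Heyl) and no unadjusted p below 0.05 (edgeR). Whether each gene of this list responds to Notch in this tissue was not tested. Of all genes tested, 49.2% were above 0. Of these 7 genes 2 were above 0 without saline mice 3 and 8, 3 with the length contrast as a covariate and 1 without saline mouse 1. The median was -0.13 without saline mice 3 and 8 and -0.08 with the covariate. An unadjusted edgeR p below 0.05 was reached by Nrarp without saline mice 3 and 8 (0.0479) and without adropin mouse 6 (0.0387), and by Hes7 without adropin mouse 4 (0.0434). Hes7 ranged from 0.829 to 1.80 CPM in adropin mice and from 1.07 to 2.26 in saline mice, and Heyl from 5.74 to 8.00 and from 5.68 to 9.40. Both overlapped between groups. Hes3, a Hes family gene of the developing hindbrain, did not reach the minimum level and was looked at after its values were seen. It had 8.71 CPM in saline mouse 8, the mouse with the most choroid plexus and cerebellar markers, and 0.304 to 1.72 CPM in the other 15 mice. With no filter on low counts its log2 fold change was -1.46 (edgeR adjusted p = 0.663).

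**Figure D3:**
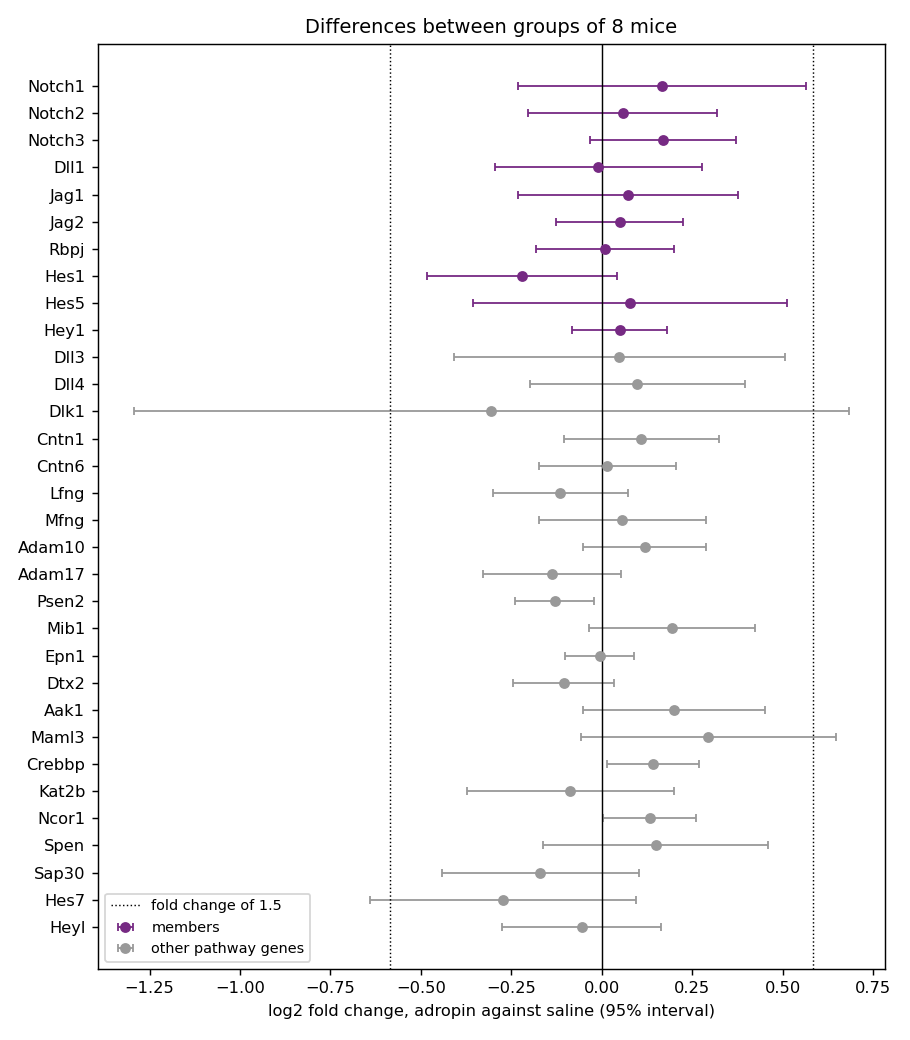
Log2 fold change of adropin against saline (x axis, 8 mice per group) with its 95% interval from edgeR for the 10 members (purple) and the other pathway genes named by role (grey). Dotted lines mark a fold change of 1.5. Every member's interval includes 0 and lies between the dotted lines, and those of Psen2, Crebbp and Ncor1 do not include 0.

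Cntn6 was at 8.05 to 13.0 CPM in adropin mice (median 11.1) and 9.55 to 12.9 in saline mice (median 10.5), with a log2 fold change of 0.02 (standard error 0.09, 95% interval -0.17 to 0.21, edgeR adjusted p = 0.976). Enho, the gene that encodes adropin, had a log2 fold change of -0.10 (standard error 0.10, edgeR adjusted p = 0.877, exact permutation p = 0.4). With single mice left out it ranged from -0.13 (without saline mouse 5) to -0.03 (without saline mouse 8). Gpr19, an orphan receptor proposed for adropin, ranged from 10.7 to 13.9 CPM in adropin mice and 12.1 to 15.0 in saline mice. All 8 adropin mice were below its saline median of 14.4 CPM. The difference in Gpr19 was -0.20 on the log2 scale (standard error 0.07, edgeR p = 0.0096, adjusted p = 0.874, exact permutation p = 0.0073). When blocked by the first number of the labels it was -0.30 (unadjusted p of 0.0095 by edgeR), and when blocked by the second it was -0.16 and no longer had an unadjusted p below 0.05 (0.0568). The first of these fits compares the groups only among the mice named above for Hes5.

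Levels varied between mice of the same group, and across mice Notch1 ran opposite to Hes1. Relations were computed on log2 CPM with the group means subtracted over the 16 mice, with 100000 permutations within groups and adjustment over the 6 relations, which were chosen from the 45 pairs of members and from marker sums. Hes1 was low where Notch1 was high (Pearson r = -0.830 with a permutation p of 0.00054 and an adjusted p of 0.0016, and Spearman rho = -0.703, p = 0.0058, adjusted p = 0.0349). Pearson's r was -0.854 within the adropin mice and -0.828 within the saline mice, and -0.748 without saline mouse 3 and adropin mouse 6, the 2 farthest from the median of Notch1. The other receptors were alike in this, as a description with no test, with r = -0.839 for Notch2 with Hes1 and -0.743 for Notch3 with Hes1, and Notch1 itself had r = 0.858 with Notch2 and 0.853 with Notch3. Hes5 was related to Notch1 with r = -0.713 (permutation p = 0.0064, adjusted p = 0.0129) but rho = -0.453 (p = 0.0875, adjusted p = 0.159), and with r = -0.405 without the same 2 mice, so this relation rests on them. Hes1 and Hes5 went together with r = 0.839 (permutation p = 0.00051, adjusted p = 0.0016), rho = 0.424 (p = 0.106, adjusted p = 0.159), and r = 0.656 without saline mice 3 and 4.

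Notch1 and Rbpj had r = 0.413 (permutation p = 0.117, adjusted p = 0.175) and rho = 0.35 (p = 0.193), and r = 0.104 without saline mouse 3 and adropin mouse 6. Hey1 and Jag2 had r = -0.389 (permutation p = 0.166, adjusted p = 0.200) and rho = -0.535 (p = 0.0469, adjusted p = 0.141), and r = -0.539 without saline mouse 4 and adropin mouse 4. Notch3 and the summed mural markers had r = 0.343 (permutation p = 0.243, adjusted p = 0.243) and rho = 0.400 (p = 0.147, adjusted p = 0.176), and r = 0.636 without saline mice 3 and 8. None of these 3 relations passed the adjustment.

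Adropin mice 4 and 6 and saline mice 3 and 8 were the lowest in Notch1. Setting them aside narrows the range of Notch1, which lowers r by construction. In the 12 mice left, Notch1 had r = -0.601 with Hes1 (permutation p = 0.0811) and r = -0.105 with Hes5 (p = 0.732), and Hes1 had r = 0.549 (p = 0.168) and rho = 0.021 with Hes5. The same 4 mice stood at the low end of a measure over all coding genes, the gene length contrast. This is the median centred log2 CPM of the quintile of coding genes with the longest merged exons (7.865 kb or more, 2714 genes) minus that of the quintile with the shortest (2.617 kb or less, 2714 genes). It was -0.48 in saline mouse 3, -0.38 in saline mouse 8, -0.30 in adropin mouse 6 and -0.12 in adropin mouse 4, and between -0.11 and 0.28 in the other 12, so that adropin mouse 4 was hardly below saline mouse 1 (-0.11). The groups overlapped in it (exact permutation p = 0.260). Notch1, Notch2, Notch3 and Rbpj belong to the longest quintile by merged exons, and Hes1 and Hes5 to the shortest. These genes are among those that define the contrast, so the sign of their r with it was partly set by that definition. No r is given here for the other genes of the quintiles. The p-values of the next paragraph therefore do not mark a trait particular to Notch genes.

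Over the 16 mice, Notch1 followed the length contrast with r = 0.931 (permutation p = 3e-05, adjusted p = 0.00030 over 10 members) and rho = 0.700 (p = 0.0058, adjusted p = 0.0301), and with r = 0.862 without saline mice 3 and 8. Hes1 had r = -0.771 (permutation p = 0.0017, adjusted p = 0.0042) and rho = -0.712 (p = 0.0060, adjusted p = 0.0301), and r = -0.655 without those mice. Thus the receptor transcript was low and the Hes1 transcript high in brains where long transcripts as a whole were low relative to short ones. For 3 further members both coefficients were above 0.5 in size with the adjusted permutation p of r below 0.05, namely Notch2 (r = 0.773), Notch3 (r = 0.802) and Jag2 (r = 0.729), but no adjusted p of rho was below 0.05 among them (0.0867, 0.0960 and 0.0924). Without saline mice 3 and 8 their r was 0.630, 0.586 and 0.492. Jag1 and Hes5 had r = 0.660 and -0.621 (adjusted permutation p = 0.0120 and 0.0190) with rho = 0.485 and -0.382 (adjusted permutation p = 0.100 and 0.185). Rbpj had r = 0.478 (permutation p = 0.0600), and 0.614 without saline mice 3 and 8. Dll1 had r = 0.091 and Hey1 r = -0.233 (permutation p = 0.767 and 0.413). After regression on the length contrast, a step added after seeing the data, r was -0.483 for Notch1 with Hes1 (permutation p = 0.0739, adjusted p = 0.168), -0.472 for Notch1 with Hes5 (p = 0.0841, adjusted p = 0.168) and 0.723 for Hes1 with Hes5 (p = 0.0037, adjusted p = 0.0221). The rho values were then -0.453, -0.532 and 0.429 in the same order, given without a test, so the rank relation of Hes1 with Hes5 was weaker than its r. With the length contrast as a covariate in edgeR, 3 members had a log2 fold change above 0 and 7 below, Notch1 was at -0.06 and Notch3 at 0.08, and none had an unadjusted p below 0.05.

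**Figure D4:**
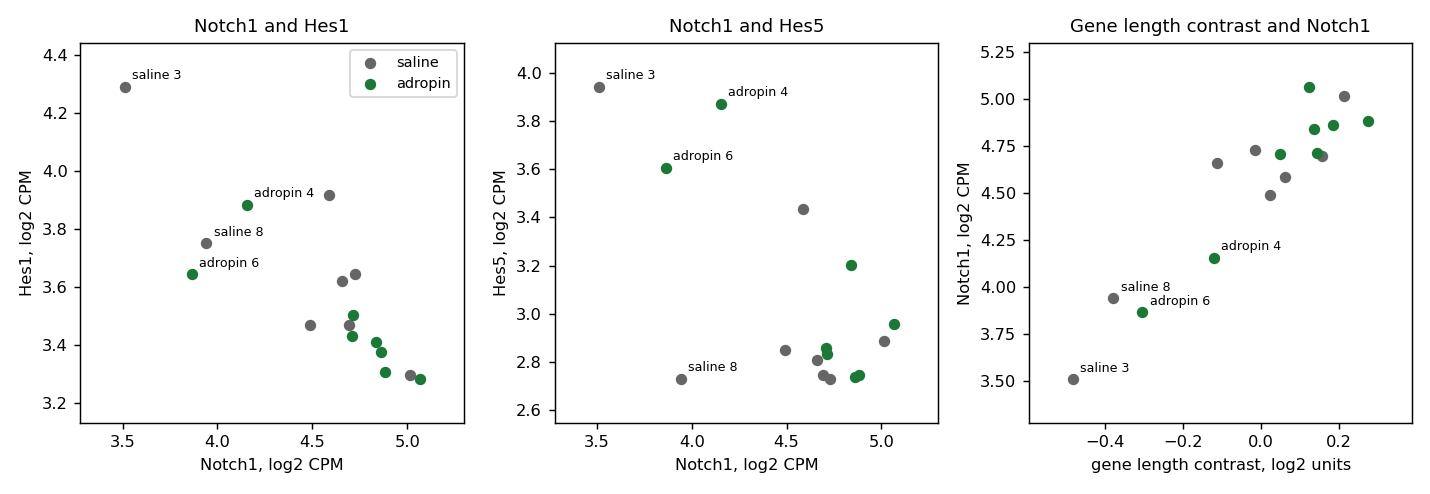
Log2 TMM-normalized CPM of Hes1 and of Hes5 (y axes) against Notch1 (x axis), and of Notch1 against the gene length contrast (log2 units, x axis), with 1 point per mouse (8 saline in grey, 8 adropin in green). The 4 named mice are the lowest in Notch1 and in the length contrast. Saline mouse 3 has the highest Hes1 and Hes5, while saline mouse 8 is low in Hes5.

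The same mice also differed in astrocyte markers, of which 6 of 6 were tested and none was at 0. Their summed level was 1946 CPM in saline mouse 3, 2208 in adropin mouse 6, 2310 in saline mouse 8 and 2595 in adropin mouse 4, and 2832 to 3861 in the other 12 mice. The group ranges were 2208 to 3861 CPM in adropin and 1946 to 3711 in saline. The part of astrocyte markers and of the mitochondrial share in the Notch1 and Hes1 values was not tested.

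The gene most alike to each member was the one of the 14948 others tested with the highest Pearson r of log2 CPM, group means subtracted, over the 16 mice. It was Ago1 for Notch1 (r = 0.979), Tbc1d1 for Notch2 (r = 0.936) and Epas1 for Notch3 (r = 0.917). For the ligands it was Dcaf12l2 for Dll1 (r = 0.954), Gm14412 for Jag1 (r = 0.919) and Zswim8 for Jag2 (r = 0.958), and for Rbpj it was Nlk (r = 0.927). For the target genes it was Camk1 for Hes1 (r = 0.947), Dctn5 for Hes5 (r = 0.959) and Dnaja1 for Hey1 (r = 0.939). These genes share libraries and differences between mice with the members, and a highest value among so many genes is a description.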

How the data were processed

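RNA from 8 adropin and 8 saline brains was poly-A selected and sequenced as paired 150-base reads. The authors used STAR with an Ensembl release of GRCm38, counted with featureCounts the reads that fell on 1 place and 1 gene, and deposited these counts without normalization. A CPM table made from these counts was not used. Each mouse is 1 replicate, numbered within its group in the order of deposit.

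After 276 repeated entries and 355 ribosomal RNA genes were left out, 14949 genes that exceeded 1 CPM in 7 or more mice were compared by edgeR 4.0.16 (R 4.3.3) with TMM factors and no covariate. Single members were also compared by two-sided exact permutation of mean log2 CPM (prior count 2). Positions and exon lengths came from GENCODE on GRCm38. The alternatives were limma-voom 3.58.1, DESeq2 1.42.0, other scalings and filters, the label numbers as blocks and leaving out each mouse. The scripts were tested on simulated counts. Totals of 35026503 counts or more limit the precision mainly for genes near 1 CPM.

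The members and gene lists were chosen with earlier results of these data known. Named by rule are the members, Cntn6, Enho, Gpr19, pathway genes with an unadjusted p below 0.05, the largest and smallest log2 fold change of each pathway list, and the gene most alike to each member. Outside that rule, Notch4, Hes6, Hey2, Nrarp, Id1 and Id3 are named to complete their lists, Hes3 after its values were seen, and Cir1, Fbxw7 and Tle1 for the fit with the length contrast.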

Additional observations from a re-analysis of the deposited data

Results flagged for a closer look

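Each of the 34 genes named by the rule above (the members and the other pathway and adropin genes) was examined for a mouse far from the other 7 of its group, in 68 groups of 8. Chance alone would mark about 1 group in 20, or 3.4 of these groups, and 4 were marked. No member was among them. Epn1 had 782 CPM in saline mouse 3, where the nearest saline mouse had 706. Hes7 had 2.26 CPM in the same mouse, where the nearest had 1.62. Heyl had 9.40 CPM in saline mouse 1, with 7.39 as the nearest value. Kat2b had 26.4 CPM in saline mouse 8, with 17.3 as the nearest.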

How the results depend on the processing

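No member reached an adjusted p below 0.05 or passed the fold change cut-off under any alternative run. The number of members with an unadjusted p below 0.05 was 0 in every fit of all mice, and 0 to 2 when single mice were left out (1 without adropin mouse 6, 2 without adropin mouse 4 or saline mouse 2). Of all 14949 genes, 596 had one in the main comparison, 1445 without adropin mouse 6, 792 without adropin mouse 4 and 980 without saline mouse 2, so the rise was not particular to the members. For the other pathway genes the number with an unadjusted p below 0.05, 3 in the main comparison, was 0 when blocked by the first number of the labels and 1 when blocked by the second. It was 5 with the length contrast as a covariate (Psen2 with Adam17, Cir1, Fbxw7 and Tle1) and 1 to 8 with single mice left out, the highest without adropin mouse 6. Over all 14949 genes it was 327 with the first block, 420 with the second, 629 with the length contrast and 1445 without adropin mouse 6, so it rose there for all genes too. The number past the cut-off was 1 (Hes3) with no filter and 1 with at least 10 counts in every mouse. Over all genes it was 1353 of 30210 with no filter and 84 of 15984 with at least 10 counts, against 63 of 14949 in the main comparison. Low counts of Hes3 and Hes7 limit what can be said of them.

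Several log2 fold changes changed sign, those of Notch1, Spen and Adam17 among them, and none of these had an unadjusted p below 0.05 in the main comparison. With the length contrast as a covariate they were -0.061 for Notch1, -0.062 for Notch2, -0.046 for Jag1, -0.021 for Jag2, -0.048 for Rbpj, -0.0043 for Cntn6, 0.015 for Enho, 0.020 for Epn1 and -0.025 for Spen. Without saline mice 3 and 8 they were -0.020 for Notch1, -0.048 for Notch2, -0.034 for Jag1, -0.036 for Jag2, 0.022 for Enho and 0.015 for Epn1. Blocked by the first number of the labels they were -0.19 for Hes5, -0.027 for Hey1, 0.079 for Adam17 and 0.11 for Kat2b, and with the second -0.084 for Dll3. With library size only they were -0.015 for Rbpj and -0.0052 for Cntn6, and limma-voom gave 0.0095 for Dll1. The difference in mean log2 CPM with library size only was -0.010 for Dll1 and -0.020 for Rbpj.

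With single mice left out, the log2 fold change ranged from -0.014 to 0.14 for Notch2, from -0.071 to 0.075 for Dll1, from -0.038 to 0.049 for Rbpj, from -0.055 to 0.26 for Hes5, from -0.018 to 0.068 for Cntn6, from -0.083 to 0.18 for Dll3, from -0.012 to 0.019 for Epn1, from -0.095 to 0.012 for Heyl and from -0.15 to 0.050 for Kat2b, and the difference in mean log2 CPM from -0.023 to 0.13 for Notch2, from -0.054 to 0.084 for Dll1, from -0.0076 to 0.15 for Jag1, from -0.047 to 0.036 for Rbpj and from -0.025 to 0.22 for Hes5. The relation of Notch1 with Hes5 was -0.472 and that of Notch1 with Hes1 -0.483 after regression on the length contrast, where Notch1 with Rbpj was -0.098. Without the 4 mice lowest in Notch1, which narrows its range, r was -0.105 for Notch1 with Hes5, -0.601 for Notch1 with Hes1, 0.549 for Hes1 with Hes5 and -0.053 for Notch1 with Rbpj. The length contrast and the sets of mice left out together were chosen after seeing the data. Fewer mice enter the fits that leave some out, and otherwise the cause was not tested. The first number of the labels occurs in both groups for some mice only, so that block compares fewer mice than the main fit. The sources used here do not say what this number marks.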
